A study of Mus musculus with 6 samples.

Results

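Retinoid synthesis, binding and receptor genes were examined in the medial prefrontal cortex (mPFC) of *Shank3* transgenic (TG) and wild-type (WT) mice. The set was given as 9 gene symbols, *Aldh1a1*, *Aldh1a2*, *Cyp1b1*, *Rbp4*, *Stra6*, *Crabp2*, *Rara*, *Rarb* and *Rxrg*, and each was matched through GENCODE release M21 to 1 of the 18254 genes of the deposited table. All 9 averaged 5 or more normalized counts per library, the level required for a test, as did 16714 genes in all. Male mice aged 10 to 12 weeks on a C57BL/6J background carried an EGFP-*Shank3* transgene or were WT littermates. RNA of the mPFC was sequenced in 3 TG and 3 WT libraries. Each library pooled the tissue of 2 mice of the same genotype, so a replicate is a pool and the spread between single mice was not measured. The promoter that drives the transgene is not given in the sources used here.

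Retinoic acid is made from vitamin A (retinol), which reaches tissues bound to the plasma carrier RBP4 and can enter cells through the membrane receptor STRA6. Retinol is oxidized to retinal and retinal to retinoic acid, and retinaldehyde dehydrogenases such as ALDH1A1 and ALDH1A2 perform the last step. Inside the cell CRABP2 carries retinoic acid to the nuclear receptors of the RAR and RXR families, and CYP26 enzymes break it down. In the brain the meninges are a main source of retinoic acid, and receptors of this pathway are abundant in the striatum.

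Library sums ranged from 28363967 to 29447717 normalized counts. *Shank3*, the gene carried by the transgene, had 16310 to 19004 normalized counts in the TG libraries and 6791 to 8374 in the WT libraries, so every TG library lay above every WT library, as labelled. A list of 10 genes of cortical excitatory neurons, led by *Camk2a*, *Slc17a7* and *Tbr1*, summed to between 162054 and 195757 normalized counts in every library, as the labelled tissue requires. TG-3 and WT-3 stood apart from the other libraries, and over all tested genes their deviations from the genotype means had a correlation of 0.62, a description across genes and not over replicates. Among the retinoid genes this was seen most in *Aldh1a1*, which was lower in library 3 than in libraries 1 and 2 by 0.69 (TG) and 0.57 (WT) on the log2 scale. In bulk tissue a lower number of cells of a type and less RNA per cell cannot be told apart.

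Relative to length, *Rbp4* had the highest level of the 9 genes, with 249 ± 7.02 normalized counts per kilobase of exon in WT (SD, n = 3). *Aldh1a1* followed with 139 ± 29.3, *Rara* with 105 ± 15.03 and *Aldh1a2* with 91.2 ± 8.24. The ranges of the WT libraries overlapped between *Aldh1a1* and *Rara* and between *Rara* and *Aldh1a2*, so the order of these neighbours was not separated from the spread. *Crabp2* (40.5 ± 4.19), *Rxrg* (38.6 ± 7.26) and *Rarb* (36.3 ± 3.30) formed a group with overlapping ranges. *Stra6* (22.1 ± 2.29) and *Cyp1b1* (15.7 ± 3.41) were lowest, without overlap between them in WT. In TG the order of the means was the same. The lowest TG value of *Crabp2* was 55.8 per kilobase there, above the 48.2 of the highest TG value of *Rxrg*. These levels use the summed length of all annotated exons, some of which may not be used in this tissue.

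**Figure D1:**
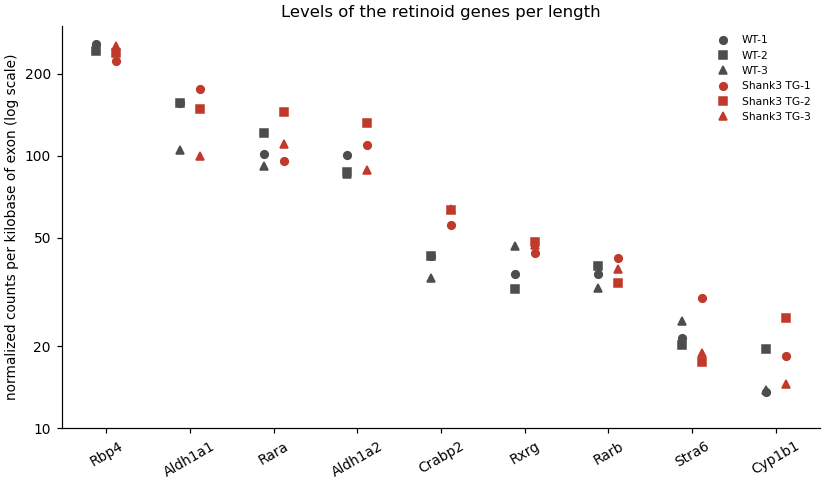
Levels of the 9 retinoid genes in normalized counts per kilobase of annotated exon (log axis), 1 point for each library, WT in grey and *Shank3* TG in red, with shapes for libraries 1 to 3. *Rbp4* lies at the top, between 222 and 257, and *Cyp1b1* and *Stra6* at the bottom, between 13.6 and 30.1.

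*Crabp2* was the retinoid gene that differed most between the genotypes. It had a mean of 80.5 ± 5.85 normalized counts in TG and 53.5 ± 5.53 in WT (SD, n = 3 libraries each), and it was the only 1 of the 9 genes to pass 0.05 before adjustment in the two-sided test of limma. Of all tested genes 2.01% passed that threshold, 0.933% with a higher and 1.08% with a lower level in TG. *Crabp2* was also the only member without overlap between the genotypes, which held for 6.02% of all tested genes, with all TG libraries higher in 2.91% and lower in 3.12%. Of the 9 genes, 7 had a fitted level above WT and 2 below it. Their median difference was 0.15 on the scale log2(normalized count + 1), and that of all tested genes was -0.0037. After Benjamini-Hochberg adjustment over all tested genes 0 members and 0% of all genes passed 0.05. *Shank3* itself, which differed by 1.18, had an adjusted p of 0.0643 in limma's test, so this fit missed even the gene of the transgene. With the replicate number as a block, which pairs same-numbered TG and WT libraries, *Crabp2* again was the only member to pass 0.05 before adjustment. Of all tested genes 4.98% passed before and 0.00598% after adjustment, and *Shank3* was the gene that passed after it (adjusted p = 0.000437 in limma's test). With an empirical null, in which the test statistics are rescaled by their own spread, 7.27% passed before and 0.156% after adjustment, and the members that passed before it were *Crabp2* and *Rxrg*. Without TG-3 and WT-3, 2.81% passed before and 0.00601% after adjustment, and 26.1% had no overlap. In that fit *Aldh1a2* was the only member to pass before adjustment, and 4 members, *Crabp2*, *Aldh1a2*, *Rxrg* and *Rbp4*, had no overlap. For 1 gene alone, the smallest two-sided p that exact permutation of 3 against 3 libraries allows is 0.1.

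**Figure D2:**
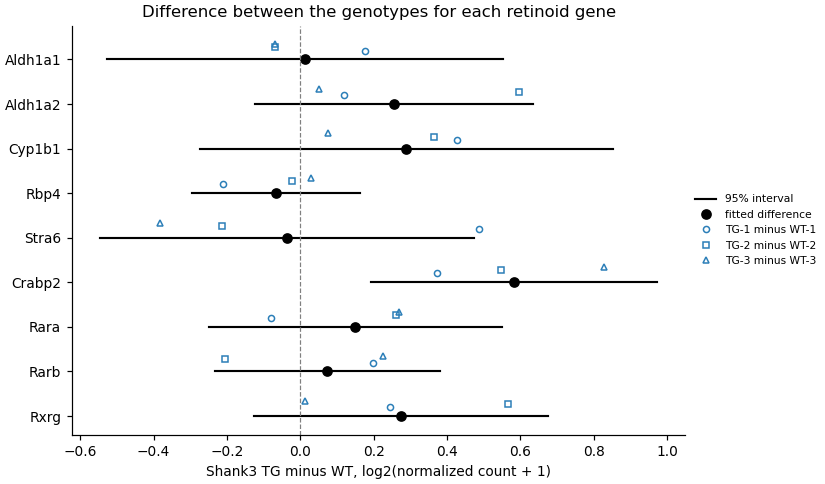
Difference between *Shank3* TG and WT for each retinoid gene on the scale log2(normalized count + 1). Black points and lines give limma's fitted difference and its 95% interval, and open blue symbols the difference within each replicate number. The interval of *Crabp2* (0.19 to 0.97) is the only one that does not reach 0.

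Of the synthesis genes, *Aldh1a1* (ENSMUSG00000053279, GRCm38 chromosome 19 from 20492715 to 20643465) encodes a retinaldehyde dehydrogenase of the cytosol. It had 869, 734 and 495 normalized counts in TG-1, TG-2 and TG-3 and 770, 769 and 519 in WT-1, WT-2 and WT-3. Both libraries numbered 3 were the lowest of their genotype, and the groups overlapped throughout. The difference was 0.01 (log2, standard error 0.23) with a 95% interval of -0.53 to 0.55, and its standard error was 0.08 with the replicate block. Of the 31-base words in the annotated transcripts of *Aldh1a1*, 5.7% also occur in *Aldh1a7*, a neighbouring near-copy whose open reading frame is identical at 91.6% of bases. The division of reads between these copies rests on the authors' quantification. *Aldh1a7* itself had 36.7 to 45.8 normalized counts in TG and 27.4 to 53.8 in WT.

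*Aldh1a2* (ENSMUSG00000013584, chromosome 9 from 71215789 to 71296243) encodes the retinaldehyde dehydrogenase typical of meningeal fibroblasts. It had 248, 299 and 201 normalized counts in TG-1, TG-2 and TG-3 and 228, 198 and 194 in the WT libraries. TG-1 and TG-2 were above every WT library, and TG-3 lay below WT-1. The difference was 0.26 (standard error 0.16, 95% interval -0.12 to 0.63, unadjusted p = 0.157 in limma's test), and TG was higher at each of the 3 replicate numbers. Without TG-3 it was 0.40 (unadjusted p = 0.0300 in limma's test), without TG-2 it was 0.11 and without both libraries numbered 3 it was 0.36 (unadjusted p = 0.0465 in limma's test), so the size of the difference turned on single libraries. The coding sequences of *Aldh1a1* and *Aldh1a2* are identical at 67.5% of bases and share no 31-base word, so their reads are told apart.

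*Cyp1b1* (ENSMUSG00000024087, chromosome 17 from 79701537 to 79715061) encodes a cytochrome P450 that can oxidize retinol and retinal. It had 107, 148 and 84.9 normalized counts in TG and 79.7, 115 and 80.5 in WT, in the order of the replicate numbers. Library 2 was the highest of both genotypes, and the groups overlapped. The difference was 0.29 (standard error 0.24, 95% interval -0.27 to 0.85), with TG higher at each replicate number by 0.43, 0.36 and 0.07. Without TG-2 it was 0.08.

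Of the transport and binding genes, *Rbp4* (ENSMUSG00000024990, chromosome 19 from 38116629 to 38125281) encodes the plasma carrier of retinol. Its difference had the smallest standard error of the 9 genes. It had 298, 321 and 340 normalized counts in TG and 345, 326 and 333 in WT. The groups overlapped, and the difference of -0.07 (standard error 0.10) had a 95% interval of -0.30 to 0.16. *Stra6* (ENSMUSG00000032327, chromosome 9 from 58063788 to 58153996), the receptor that takes up retinol from RBP4, had 175, 102 and 110 normalized counts in TG and 125, 118 and 144 in WT. TG-1 was above and both other TG libraries below every WT library, and the difference of -0.04 (standard error 0.22, 95% interval -0.55 to 0.47) was -0.28 without TG-1 and 0.11 without TG-2. The gene body of *Stra6* overlaps *Ccdc33* on the opposite strand, but no 31-base word of its transcripts occurs in another gene on either strand.

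*Crabp2* (ENSMUSG00000004885, chromosome 3 from 87948666 to 87953376) encodes cellular retinoic acid binding protein 2. It had 73.8, 83.3 and 84.5 normalized counts in TG-1, TG-2 and TG-3 and 56.8, 56.7 and 47.1 in WT-1, WT-2 and WT-3. All TG libraries were above all WT libraries. The difference was 0.58 (standard error 0.17, 95% interval 0.19 to 0.97), which is 1.14-fold to 1.96-fold, and its unadjusted p of 0.00896 in limma's test was the 72nd smallest of 16714. It was 0.37, 0.55 and 0.83 at replicate numbers 1, 2 and 3. Leaving out any 1 library gave 0.50 to 0.64 (unadjusted p = 0.0166 to 0.0314 in limma's test), and without both libraries numbered 3 it was 0.46 (unadjusted p = 0.0518 in limma's test). After adjustment, p in limma's test was 1.00 without the block and 0.769 with it, and lay between 0.0806 (empirical null) and 1 over all settings. The paralogue *Crabp1* had 1.86, 22.8 and 4.37 normalized counts in TG and 2.75, 5.94 and 2.49 in WT, with the highest value in TG-2 alone.

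**Figure D3:**
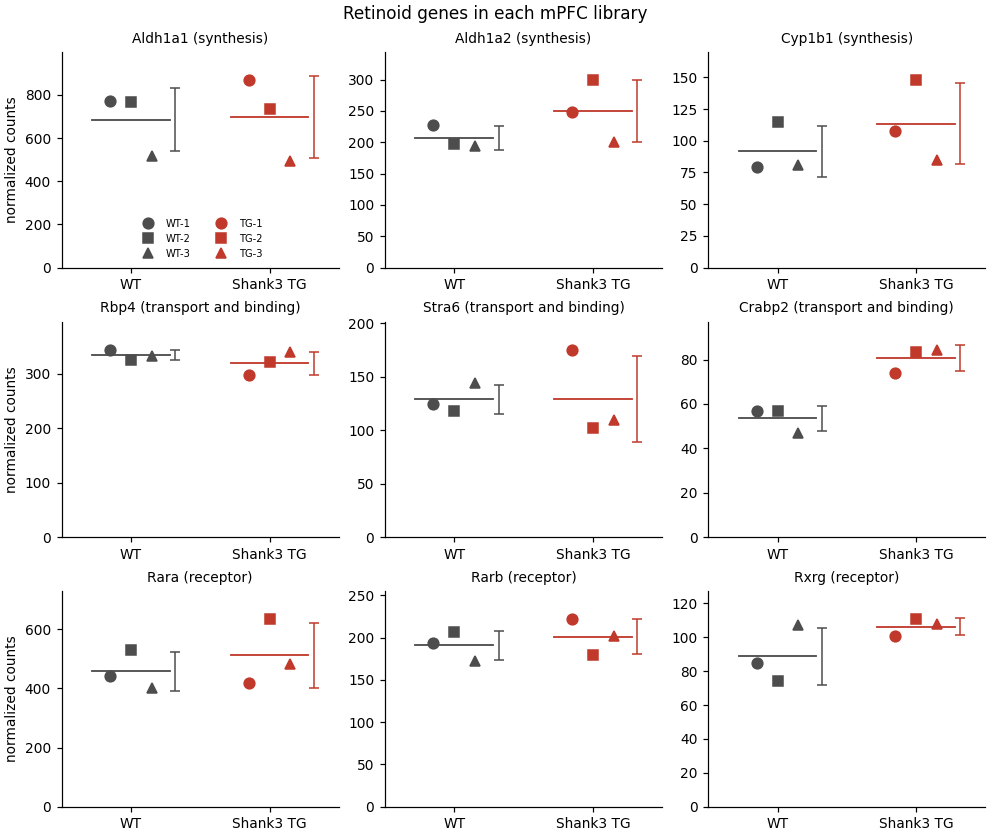
Normalized counts of the 9 retinoid genes (vertical axes from 0) in each of the 3 WT and 3 *Shank3* TG libraries. Symbols mark the replicate number, horizontal lines the means and bars the SD. The *Crabp2* values in TG (73.8 to 84.5) lie above those in WT (47.1 to 56.8), and the groups of the other 8 genes overlap.

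Of the receptor genes, *Rara* (ENSMUSG00000037992, chromosome 11 from 98927818 to 98974942) encodes retinoic acid receptor alpha. It had 418, 633 and 482 normalized counts in TG and 442, 529 and 400 in WT. Library 2 was the highest of each genotype, and the groups overlapped. The difference was 0.15 (standard error 0.17, 95% interval -0.25 to 0.55) and was -0.02 without TG-2. *Rxrg* (ENSMUSG00000015843, chromosome 1 from 167598384 to 167639623) encodes retinoid X receptor gamma, a partner of RARs in the DNA-bound dimer. It had 100.6, 111 and 108 normalized counts in TG and 84.7, 74.3 and 107 in WT. WT-3 alone reached the TG range. The difference was 0.27 (standard error 0.17, 95% interval -0.13 to 0.67), 0.42 without WT-3 (unadjusted p = 0.0371 in limma's test) and 0.16 without WT-2. A list of 12 tested genes of striatal neurons, led by *Ppp1r1b*, *Pde10a* and *Penk*, was measured because the striatum is rich in RXR gamma. It summed to 6533 to 7212 normalized counts in TG and 6277 to 6862 in WT, with 6 genes higher and 6 lower in TG, a median difference of -0.0030 and 0 genes that passed 0.05 before adjustment, a count near the 2.01% of all tested genes.

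*Rarb* (ENSMUSG00000017491, chromosome 14 from 16430839 to 16819156) encodes retinoic acid receptor beta, whose own promoter responds to retinoic acid. It had 222, 180 and 202 normalized counts in TG and 193, 207 and 173 in WT. TG-1 was the highest library and both others lay among the WT values. The difference was 0.07 (standard error 0.13, 95% interval -0.23 to 0.38). The transcripts of *Rarb* overlap those of *Top2b* on the opposite strand, and 32.1% of the 31-base words of *Rarb* occur reversed in *Top2b*, which had 2792 to 3906 normalized counts. The library kit keeps the strand, but whether the quantification used it is not given in the sources used here, so the level of *Rarb* is less certain than that of the other members.

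Retinoic acid receptors bind direct repeats of the motif AGGTCA or its relatives, of which AGTTCA was searched here and also GGGTCA as well as GGTTCA, set 5, 2 or 1 bases apart. These elements, called DR5, DR2 and DR1, were searched on both strands in RefSeq promoter windows of GRCm38.p6, from 250 bases before to 50 bases after each start. Such windows were at hand for 8 of the 9 genes, all except *Crabp2*. Of 32851 windows of all genes, 0.0974% held a DR5, 0.268% a DR2 and 0.222% a DR1, while a single motif was in 43.7%. Among the 17 windows of the retinoid genes the search found 1 element, a DR5 in *Rarb*, at chr14:16575513-16575529 on the strand of the gene. Its first base has position -53 relative to the start of the 1 window of *Rarb*. That start lies inside the annotated gene, whose outer 5' end at 16819156 was not searched. Of the breakdown enzymes, *Cyp26a1* held a DR5 on the strand opposite to the gene at chr19:37697776-37697792, and *Cyp26b1* held none in its window. Among the other pathway genes the search found a DR1 in *Bco1*, at chr8:117095809-117095821. The elements of *Rarb* and *Cyp26a1* are shown because these genes are textbook responders to retinoic acid. The repeated motifs are in capitals and the spacer in lower case.
Rarb DR5: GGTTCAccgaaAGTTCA
Cyp26a1 DR5: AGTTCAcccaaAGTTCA
Beside these elements, *Rarb* differed by 0.07 and *Cyp26a1* had 0 to 5.35 normalized counts in TG and 0 to 4.59 in WT, under the filter. A match is a description of letters and was not tied to binding in these samples.

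The other genes of the pathway were read from a list of 46, of which 41 were in the table and 39 were tested. Before adjustment 1 of the 39, *Cyp26b1*, passed 0.05, against 2.01% of all tested genes, and 23 were higher and 16 lower in TG, with a median difference of 0.02. *Cyp26b1* (ENSMUSG00000063415, chromosome 6 from 84571414 to 84593908) encodes the retinoic acid hydroxylase that clears retinoic acid in many tissues. It had 250, 191 and 158 normalized counts in TG-1, TG-2 and TG-3 and 93.6, 141 and 94.8 in WT-1, WT-2 and WT-3. Every TG library was above every WT library, although TG-3 exceeded WT-2 by little. The difference was 0.86 (standard error 0.23, 95% interval 0.33 to 1.38, unadjusted p = 0.00559 in limma's test), and it ranged from 0.68 to 1.05 when any 1 library was left out. After adjustment, p in limma's test was 1.00, against 0.471 with the block and 0.0670 with the empirical null.

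Of the 15 tested genes listed under the conversion of retinol and retinal, 8 were higher and 7 lower. Before adjustment 0 of these passed 0.05 in limma's test, against 2.01% of all tested genes. *Adh5*, the most abundant of them, differed by -0.04 (standard error 0.10). *Rdh11*, a retinal reductase, was the only one without overlap (all TG below all WT in 3.12% of tested genes), with 569 to 617 normalized counts in TG and 641 to 684 in WT, a difference of -0.14 (standard error 0.08, unadjusted p = 0.130 in limma's test). *Aldh1a3*, the most abundant other gene of the step from retinal to retinoic acid, had 93.7 to 110 normalized counts in TG and 96.9 to 100.1 in WT, a difference of 0.02 (standard error 0.14). Of the binding proteins, *Fabp5*, which can also carry retinoic acid, differed by -0.01 (standard error 0.16), with 1332 to 1823 normalized counts in TG and 1371 to 1855 in WT.

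Among the 10 receptors and cofactors, 0 passed 0.05 before adjustment in limma's test, beside the same 2.01%, and the differences lay between -0.12 and 0.14. *Ncor1*, a corepressor of unliganded receptors, had 11400 and 12310 normalized counts in TG-3 and WT-3 against 6139 to 6834 in the other 4 libraries. Of the 6 tested genes listed as responsive to retinoic acid, 3 were higher and 3 lower in TG, with a median difference of 0.07. The most abundant was *Meis2*, a homeobox gene, with 3954, 4502 and 4590 normalized counts in TG and 3319, 3443 and 4487 in WT. Its difference was 0.22 (standard error 0.13). In the blocked fit the pathway genes that passed 0.05 before adjustment numbered 3, *Cyp26b1* and *Meis2* (higher) and *Ncor1* (lower), against 4.98% of all tested genes. After adjustment in that limma fit, p was 0.471 for *Cyp26b1*, 0.782 for *Meis2* and 0.996 for *Ncor1*.

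**Figure D4:**
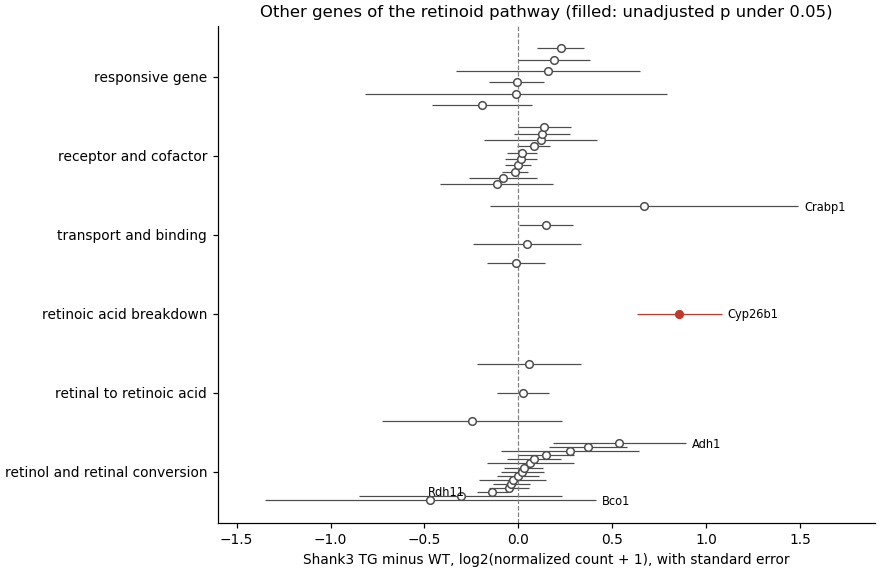
Differences between *Shank3* TG and WT on the scale log2(normalized count + 1) for the 39 tested pathway genes, grouped by role, with standard errors. *Cyp26b1* (0.86) is the only filled point, the mark of an unadjusted p-value under 0.05. Genes with a difference over 0.4 in size, or without overlap between the genotypes, are named.

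Markers of the leptomeninges, the membranes that make retinoic acid at the brain surface, had higher fitted levels in TG. Of 25 genes, 25 were higher and 0 lower, with a median difference of 0.35 against -0.0037 for all tested genes. Before adjustment 15 of them passed 0.05 (10 without TG-2 and 8 without WT-2), against 2.01% of all tested genes. With the replicate block 20 did, against 4.98%. In 16 of the 25 every TG library was above every WT library, against 2.91%. Their sum was 10722, 11597 and 10428 normalized counts in TG-1, TG-2 and TG-3 and 9392, 8323 and 8776 in the WT libraries, 1.24 times higher in TG by the means. The most abundant were *Igf2* (difference 0.24, standard error 0.09), *Col1a2* (0.09, standard error 0.15) and *Aebp1* (0.38, standard error 0.10). After adjustment 0 of the 25 passed in limma's test with or without the block, and 1, *Slc47a1*, passed with the empirical null.

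*Crabp2* and *Cyp26b1*, like this list, had all TG libraries above all WT libraries. Within a genotype the order of the libraries differed, and *Cyp26b1* was highest in TG-1 and WT-2 while the list was highest in TG-2 and WT-1. Per 1000 summed leptomeningeal normalized counts, a ratio set after the values had been seen, *Crabp2* was 6.88, 7.18 and 8.10 in TG and 6.05, 6.81 and 5.37 in WT. The groups still did not overlap, but TG-1 exceeded WT-2 by little. For *Cyp26b1* the ratio was 18.3 ± 4.38 in TG and 12.6 ± 3.82 in WT (SD, n = 3), with overlap. For *Aldh1a2* it was 22.7 ± 3.29 and 23.4 ± 1.13, and for *Cyp1b1* 10.3 ± 2.32 and 10.5 ± 2.88. The groups of both genes overlapped with and without the division. *Rbp4*, whose undivided groups overlapped, had 29.4 ± 2.81 and 37.9 ± 1.23, with all TG libraries below all WT libraries. Since the divisor was higher in every TG library, the division itself lowers the TG ratios and can separate groups that overlap. The part of leptomeningeal tissue in the differences was not tested.

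**Figure D5:**
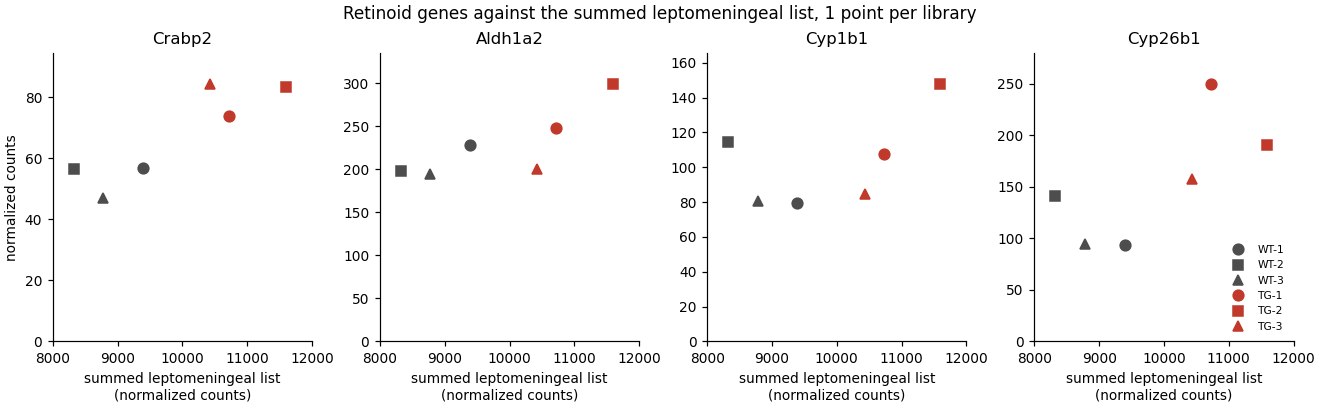
Normalized counts of *Crabp2*, *Aldh1a2*, *Cyp1b1* and *Cyp26b1* (vertical axes from 0) against the summed counts of 25 leptomeningeal genes (horizontal axis, not from 0), 1 point for each library. The TG libraries lie at 10428 to 11597 on the horizontal axis and the WT libraries at 8323 to 9392.

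Other cell types that can hold retinoid genes were measured in the same way. Of 8 border macrophage genes, led by *Stab1*, *Mrc1* and *F13a1*, 8 were higher in TG, with a median of 0.29 and a sum of 1105 to 1419 normalized counts in TG and 875 to 1134 in WT. Before adjustment 1 of these passed 0.05 without the block, against 2.01% of all tested genes, and 3 with it, against 4.98%. The choroid plexus secretes transthyretin, the partner of RBP4 in plasma. Its 12 genes, led by *Ttr*, *Kl* and *Prlr*, summed to 210 to 661 normalized counts in TG and 165 to 346 in WT, and its defining transcription factor *Otx2* was listed at 0 in TG-2 and WT-2 and reached at most 7.49. Of its 9 tested genes 6 were higher and 3 lower, and 1, *Ttr*, passed 0.05 before adjustment, again against 2.01%, with its highest value (445) in TG-3. With the block *Prlr*, lower in TG, passed as well, against 4.98%. Markers of mural cells (*Rgs5*, *Vtn*, *Pdgfrb*, median 0.01) and endothelial cells (*Slc2a1*, *Flt1*, *Slco1a4*, median 0.02) had 0 of 10 genes each that passed 0.05 before adjustment without the block. Cortical excitatory neuron genes had a median of -0.02 and 0 of 10. Of 10 genes of mature oligodendrocytes, among them *Mbp* and *Mobp*, 10 were lower in TG and 9 passed 0.05 before adjustment, against 1.08% of all tested genes on that side, with a median of -0.44. The part of these cell types in the retinoid differences was not tested.

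For each retinoid gene the 2 genes most like it over the 6 libraries were sought among 13454 genes that averaged 50 or more normalized counts. The likeness is Pearson's r of log2 values, given as a description, since 6 points that share genotype and library number leave many genes with a high r. For the synthesis genes these were *Mdfic* and *Ip6k2* (*Aldh1a1*), *Adgrg1* and *Clic1* (*Aldh1a2*) and *Polr1a* and *Sh2b1* (*Cyp1b1*). For the transport and binding genes they were *Zfp14* and *Ssh3* (*Rbp4*), *BC022960* and *Entpd7* (*Stra6*) and *Atf6b* and *Bmp3* (*Crabp2*). For the receptors they were *Pgap1* and *Inpp4b* (*Rara*), *Ndrg3* and *Chrm3* (*Rarb*) and *Dlx5* and *Bmp5* (*Rxrg*). All 18 values of r lay between 0.971 and 0.998.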

How the data were processed

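The mPFC transcriptome of 3 *Shank3* TG and 3 WT pools was measured with stranded mRNA libraries. The authors estimated transcript abundance with Salmon 0.9.1 on GRCm38 with GC bias correction, summed it to genes with tximport and scaled the counts with the size factors of DESeq2 1.19.11. The deposited signal values are these normalized counts, of which 0.970% to 1.77% per library, zeros included, equal a whole number exactly, so no counting interval was computed.

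Differences were computed with limma 3.58.1 in R 4.3.3 on log2(normalized count + 1), with genotype alone in the model and eBayes moderation that follows a mean-variance trend. A gene was tested where it averaged 5 or more normalized counts, p-values were two-sided and adjusted with Benjamini-Hochberg over 16714 genes, and the threshold was 0.05. Positions, names and exon lengths came from GENCODE M21 (18231 of 18254 genes matched) and promoters from RefSeq. Protein sequences were not used here, and identity was computed between the longest open reading frames of the GENCODE transcripts. The fit was tested on simulated data with differences larger than those of the members. The simulated noise was independent between libraries, without the shared deviation of TG-3 and WT-3.

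The members, the lists and the alternatives were chosen with earlier results of these data known, and no pattern seen before is offered as independent support. The text names all 9 members, pathway genes with an unadjusted p-value under 0.05 or without overlap, *Aldh1a7*, *Cyp26b1*, the most abundant gene of each pathway role, the 3 most abundant of each cell list, and the 2 genes most like each member, except that some genes under this rule are not reported here. *Crabp1*, *Cyp26a1*, *Bco1*, *Top2b*, *Ccdc33*, *Slc47a1* and *Otx2* were named after their values were seen.

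The correlation across genes of the deviations of same-numbered TG and WT libraries from their genotype means was 0.30, 0.33 and 0.62. It was at most 0.27 for other combinations, the value of TG-1 with WT-2. TG-3 and WT-3 were thus clearly alike, while libraries 1 and 2 were little told apart, so a pairing by number was not established. The study's methods speak of 3 pairs of RNA samples and do not tie them to the numbers. Tried in place of these choices were a pseudocount of 0.1 or 5, testing every gene, testing from a mean of 50 upward, upper quartile scaling, quantile normalization, eBayes without a trend or with the robust option, the replicate block, a term for the libraries numbered 3, an empirical null (z-scores divided by their interquartile width, in place of the empirical null of the study's methods), each library left out in turn and both libraries numbered 3 left out.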

Additional observations from a re-analysis of the deposited data

How the results depend on the processing

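*Crabp2* and *Cyp26b1* stayed higher in TG under every one of the 18 alternatives, and so did *Aldh1a2*, *Cyp1b1* and *Rxrg*, while *Rbp4* stayed lower. The filters, the eBayes options, the replicate block, the term for the libraries numbered 3 and the empirical null leave the fitted difference unchanged. Those settings could therefore not turn a sign, unlike the fits with libraries left out. The adjusted p of *Crabp2* and *Cyp26b1* was at least 0.0806 and 0.0670 in limma's test over all settings. The count of tested genes with an adjusted p-value under 0.05, 0 in the main setting, was 1 with the robust option, with the replicate block, with the term for the libraries numbered 3 and without both libraries numbered 3, 26 with the empirical null, and 0 to 1 with a library left out (1 without WT-3). The count with an unadjusted p-value under 0.05 was 833 with the replicate block, 717 with the term for the libraries numbered 3 and 1215 with the empirical null, against 336, and 219 to 417 with a library left out (219 without TG-1). Members with an unadjusted p-value under 0.05 numbered 2 with the empirical null (*Crabp2* and *Rxrg*) and 1 to 2 with a library left out (also *Aldh1a2* without TG-3 and *Rxrg* without WT-3), and without both libraries numbered 3 the only one was *Aldh1a2*. Members without overlap numbered 4 without both libraries numbered 3 and 1 to 3 with a library left out, against 26.1% and 11.1% to 15.9% of all tested genes, since fewer libraries make overlap rarer. Pathway genes with an unadjusted p-value under 0.05 numbered 3 with the replicate block, with the term for the libraries numbered 3 and without both libraries numbered 3, 4 with the empirical null, and 1 to 2 with a library left out. Near 0, the sign of *Aldh1a1* (-0.18 to 0.24 with a library left out), *Stra6* (-0.28 to 0.11, and 0.14 without both libraries numbered 3) and *Rara* (-0.0151 to 0.28) turned, as did *Rarb* without both libraries numbered 3 (-0.0032). Leptomeningeal genes with an unadjusted p-value under 0.05 numbered 8 to 17 with a library left out, and all that were tested were higher in TG under every setting except 1 without WT-2, 2 without WT-3 and 1 without both libraries numbered 3. The cause was not tested. The replicate block, which is the paired fit, changed no call of a member. It lowered the standard error (log2) of 8 members, most for *Aldh1a1* (0.23 to 0.08), *Rara* (0.17 to 0.10) and *Cyp1b1* (0.24 to 0.15), and that of *Crabp2* was 0.17 without and 0.18 with the block.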
